A study of Homo sapiens with 6 samples.

Results

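The genes examined here encode the subunits of the nuclear RNA polymerases I, II and III. They are the rows of the deposited table whose symbol is POLR1, POLR2 or POLR3 followed by letters and, in some cases, a number, without pseudogenes. Of 31 such rows, 30 of the 26364 genes in the table were kept, and POLR2J4, a transcribed pseudogene in RefSeq, was left out. All 30 lay above the filter of a mean of 10 normalized counts and were tested among 13297 genes. RNA came from MV4-11, an established human acute myeloid leukaemia line whose FLT3 gene carries an internal tandem duplication, and 3 libraries from cells given the vehicle DMSO were set against 3 from cells given 22d, a compound known as an inhibitor of the deacetylase HDAC8. Both groups were harvested after 18 hours, and the labels give 22d at 10 nM. The labels number the libraries but name no separate cultures, so p-values measure the spread between these libraries, which may be technical.

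RNA polymerase I (Pol I) makes the large ribosomal RNA precursor in the nucleolus, RNA polymerase II (Pol II) makes messenger RNA and many small nuclear RNAs, and RNA polymerase III (Pol III) makes transfer RNA, 5S ribosomal RNA and other short transcripts. Each enzyme has its own pair of large subunits that form the active centre, and all of them share a set of small subunits. Cells that grow fast need much ribosomal and transfer RNA and depend strongly on Pol I and Pol III. The members fall into 3 genes of Pol I only, 2 shared by Pol I and Pol III, 9 of Pol II only, 5 shared by every enzyme, 10 of Pol III only, and POLR2M, whose protein associates with Pol II.

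The libraries held 19995430 to 23749257 reads in genes, and the members held from 9 reads in a library (POLR2M) to 18905 (POLR2E). Of 8 myeloid marker genes, 8 were detected, and their summed level was 77869 to 97773 normalized counts under DMSO and 50108 to 61898 with 22d. The lower sum came mostly through LYZ, with a mean of 44816 under DMSO and 16624 under 22d. LYZ and MPO fell, CSF1R, ITGAM and FLT3 rose (log2 fold changes 0.78, 0.80 and 0.42), and CD33, SPI1 and CEBPA did not pass the test. Of 9 markers of other cell types, MS4A1 was among 2 at 0 in every library, and the sum was 491 to 633 with DMSO and 722 to 811 with 22d, where PECAM1 rose from a mean of 249 to 529. The part of these markers in the results was not tested. In bulk RNA, fewer cells of a type and less RNA per cell cannot be told apart.

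With 22d, 22 of the 30 subunit genes fell, 2 rose and 6 did not pass the test (limma, Benjamini-Hochberg adjusted p under 0.05). Of all genes tested, 29.6% fell and 28.5% rose, 58% in all. The median log2 fold change was -0.68 over the members and 0.01 over all genes tested. Of the members, 8 fell at least 2-fold, against 9.87% of all genes tested. In 22 members the 22d libraries all lay below the DMSO libraries and in 2 they all lay above, where 33.3% and 32.1% of all genes tested had groups that did not overlap in these directions. The authors' deposited table also calls 22 members lower and 2 higher, with 22 and 2 called alike by both. There, 23.6% of genes with an adjusted p are lower and 22.7% higher. On reads recovered from the values, edgeR called 21 members lower (28.3% of all genes) and DESeq2 22 (28.7%), and quantile normalization left 20 (27.4%). Among the 22 members that fell, 22d replicate 1 was the lowest of the 22d libraries in 18 (81.8%), compared with 64.3% of all genes that fell. Without that library the counts were again 22 lower and 2 higher. Scaling by library totals moved the median of all genes to 0.22 and left 18 members lower and 3 higher, where 20.8% of all genes tested fell; changes given here are relative to the authors' scaling.

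**Figure D1:**
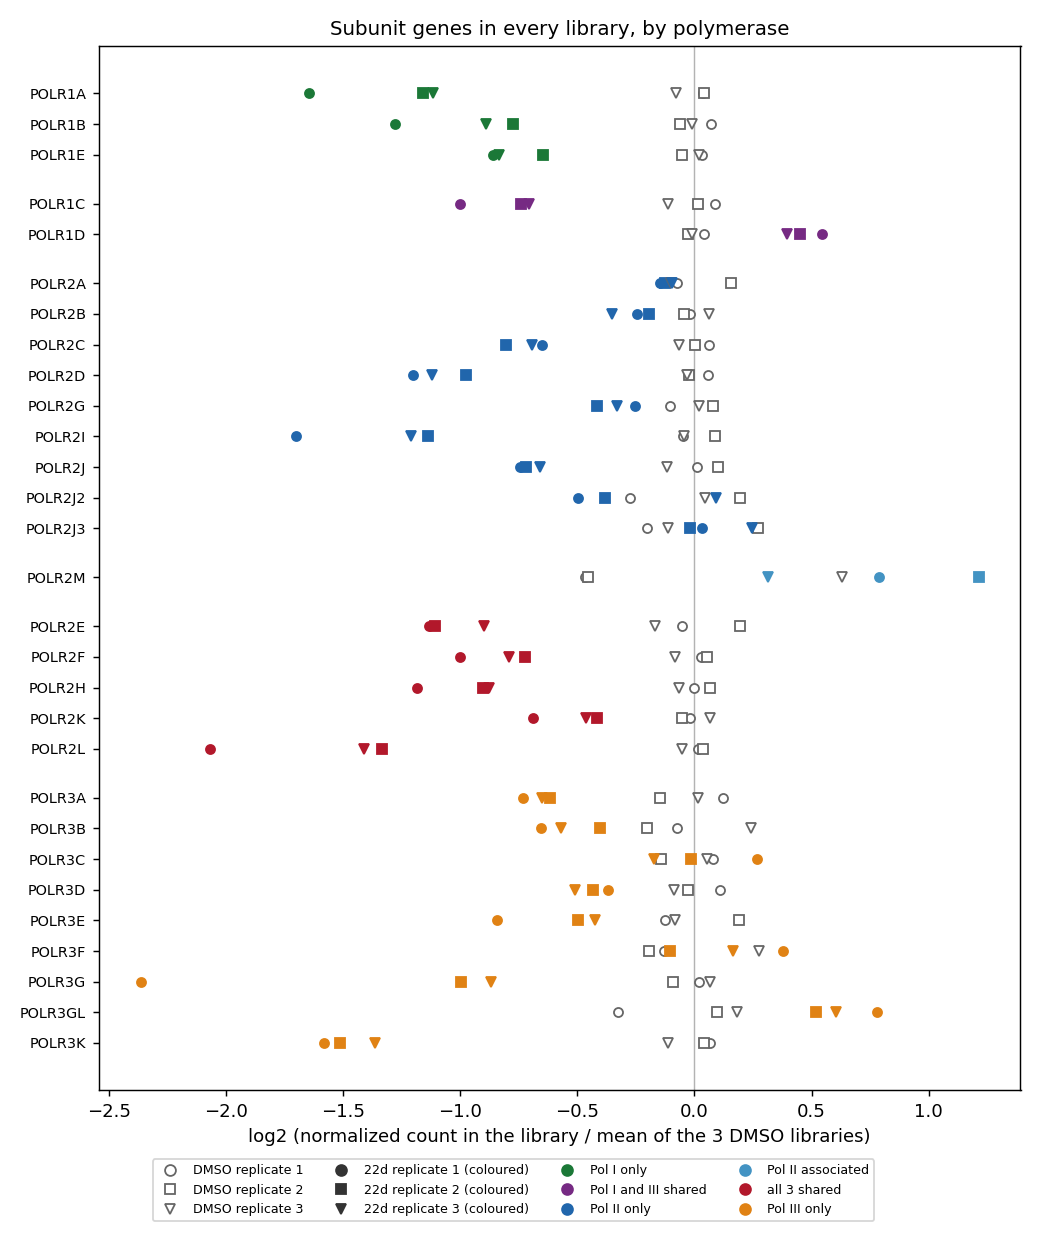
Each of the 29 rows is a subunit gene, and the horizontal axis gives the log2 ratio of a library's normalized count to the mean of the 3 DMSO libraries. Open symbols are DMSO and filled symbols 22d, with a shape for each replicate number and a colour for each class of subunit. The filled symbols lie left of all open ones in 21 rows and right of them for POLR1D and POLR3GL.

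By class, all 3 Pol I genes fell (median log2 fold change -0.98), as did all 5 genes shared by every polymerase (median -0.98). Of Pol I genes under other symbols, outside this count, CD3EAP (-1.47) and ZNRD1 (-0.45) fell and TWISTNB (-0.20) did not pass. Of the 10 Pol III genes 7 fell and POLR3GL rose (median -0.56), and of the 9 Pol II genes 6 fell and none rose (median -0.33). The Pol II genes include POLR2J2 and POLR2J3 (-0.24 and 0.10), near-identical copies of POLR2J whose values are uncertain. Without these copies the Pol II median would lie below the Pol III median, so the order of these classes depends on them. Of the 2 genes shared by Pol I and Pol III, POLR1C fell and POLR1D rose. These classes are small, and the difference between them was not tested. The ratios given further on compare single genes, not classes.

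**Figure D2:**
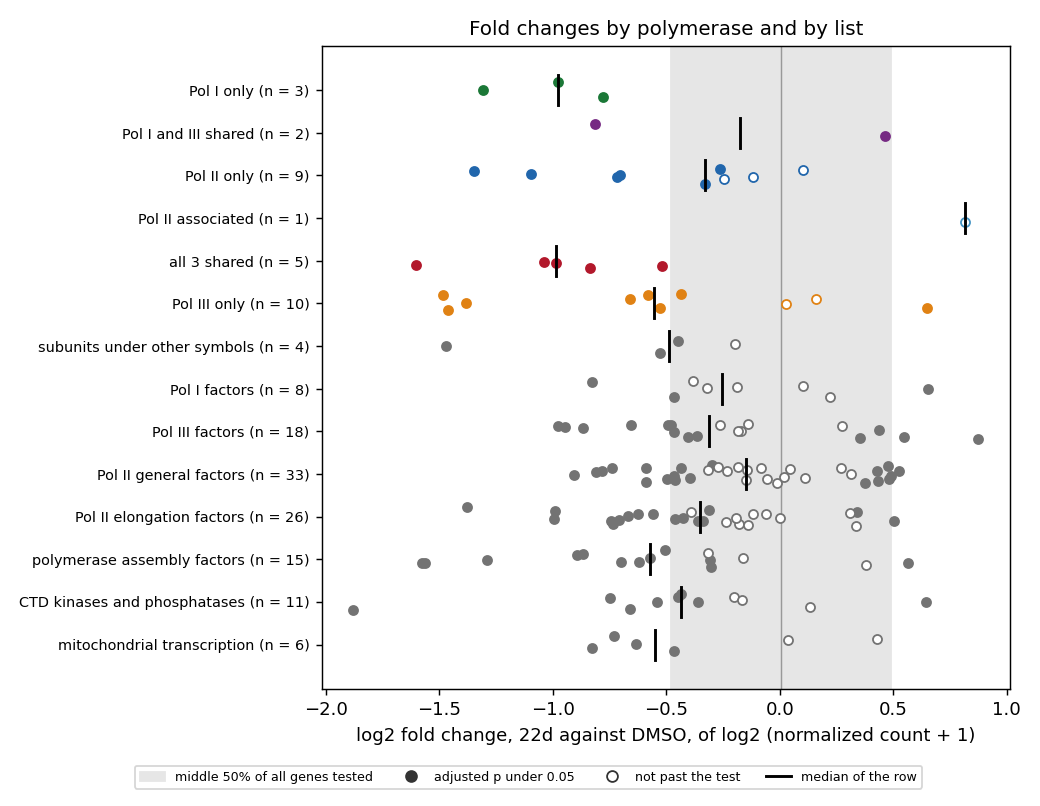
Each point is a tested gene, placed by its log2 fold change with 22d against DMSO. Filled points passed the test, bars mark row medians, and the grey band holds the middle 50% of all genes tested. The Pol I genes and the genes shared by every enzyme lie wholly left of the band. Genes of Pol II and of Pol III reach into it.

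Promoter sequences were taken from RefSeq (GRCh38.p14), which listed 27 windows for 21 of the 30 members, each from 250 bases before a transcription start to 50 bases after it. In the sequences printed here, capitals mark matches, on either strand, to the motifs searched, namely the E-box (CACGTG), the core of ETS sites (CCGGAAG), the palindromic NRF1 motif and the GC box (GGGCGG). The CCAAT box was also searched and marked by those letters, the TATA box by TATAAA, and the E2F motif in the forms TTTCGCGC and TTTGGCGC. Overlapping matches share their capitals. CCGGAAG stood in 9 of the 21 members (42.9%), compared with 22.6% of the 9708 tested genes that have a promoter in the table and 12.2% of all 27305 genes in it. The NRF1 motif stood in POLR2F, POLR2H and POLR3B (14.3%), against 2.67% of tested genes and 1.52% of all genes. GGGCGG stood in 16 (76.2%), close to the 75.9% of tested genes, and CACGTG in POLR3A, POLR3C and POLR3E (14.3%), against 12.6%. CCAAT stood in 5 (23.8%), against 42.6%, and TATAAA in POLR2M (4.76%), against 8.02%. TTTCGCGC and TTTGGCGC stood in 0 of the 21, with 1.03% and 1.41% of tested genes. The 9 genes with CCGGAAG comprised 6 of the 14 matched members that fell, 0 of the 2 that rose and 3 of the 5 that did not pass. A match describes the letters only, and these counts were not tested.

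POLR1A encodes the catalytic subunit of Pol I (chromosome 2, 86020216 to 86105886, GRCh38). It held 4122, 4143 and 3809 normalized counts under DMSO and 1287, 1802 and 1857 with 22d. All 22d libraries lay far below the DMSO libraries, at 41.0% of the DMSO mean, with replicate 1 the lowest. The log2 fold change was -1.31 (SE 0.13, adjusted p = 4.4e-06 by limma), and -1.14 without 22d replicate 1. POLR1B, the second large subunit, held 1558, 1420 and 1471 with DMSO and 611, 867 and 801 with 22d. Its log2 fold change was -0.98 (SE 0.13, adjusted p = 4.5e-05 by limma). POLR1E, which encodes a subunit with a role in initiation, fell by 0.78 from 1102 ± 35.1 to 643 ± 53.4 (SD, n = 3 each). Pol I has other subunits whose genes carry older symbols in the table and so fall outside the rule. CD3EAP, the partner of POLR1E, went from 249, 261 and 293 to 74.3, 99.5 and 118, and its log2 fold change was -1.47 (SE 0.19, adjusted p = 2.5e-05 by limma). ZNRD1, a small subunit with a role in RNA cleavage, fell by 0.45. TWISTNB, of the Pol I stalk, held 273, 211 and 326 with DMSO and 205, 295 and 206 with 22d; these overlapped and the gene did not pass (-0.20, adjusted p = 0.40 by limma).

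POLR1C and POLR1D encode partners that form a dimer within both Pol I and Pol III, and their transcripts went opposite ways. POLR1C held 1083, 1029 and 942 normalized counts under DMSO and 508, 610 and 625 with 22d. POLR1D held 2094, 1994 and 2017 with DMSO and 2970, 2784 and 2674 with 22d. In neither gene did the groups overlap. POLR1C had a log2 fold change of -0.81 (SE 0.12, adjusted p = 9.9e-05 by limma) and POLR1D rose by 0.46 (SE 0.10, adjusted p = 0.0013 by limma). POLR1D kept its rise in each alternative, between 0.42 and 0.72. Annotated exons of XPO5 on the opposite strand overlap 6.27% of the POLR1C exon bases, and XPO5 itself had a log2 fold change of -1.23; without a stated strand setting, reads of such partners cannot be told apart. The promoter windows of the pair are shown because the genes encode partners and moved apart. They lie at chr6:43516839-43517138 on the plus strand and, for the upstream start of POLR1D, at chr13:27620493-27620792 on the plus strand.
POLR1C: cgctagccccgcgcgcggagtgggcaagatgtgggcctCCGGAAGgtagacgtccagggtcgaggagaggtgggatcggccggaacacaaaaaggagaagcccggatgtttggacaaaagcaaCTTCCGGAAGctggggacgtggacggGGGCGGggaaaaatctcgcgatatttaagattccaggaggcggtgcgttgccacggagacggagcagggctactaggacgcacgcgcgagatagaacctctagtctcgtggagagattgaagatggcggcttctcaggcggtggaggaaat
POLR1D: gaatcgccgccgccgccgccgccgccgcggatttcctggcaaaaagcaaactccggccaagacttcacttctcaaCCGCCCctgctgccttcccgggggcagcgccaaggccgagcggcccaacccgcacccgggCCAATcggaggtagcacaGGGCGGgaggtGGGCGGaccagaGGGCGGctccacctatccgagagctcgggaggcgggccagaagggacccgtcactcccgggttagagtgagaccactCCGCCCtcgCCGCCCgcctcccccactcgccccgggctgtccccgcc
The POLR1C window holds 3 matches to CCGGAAG and 1 to GGGCGG. The POLR1D window holds 6 matches to GGGCGG and 1 to CCAAT.

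The 5 subunits common to all enzymes fell together. POLR2L, a small zinc-binding subunit of the assembly platform (chromosome 11, 839721 to 842529), held 2852, 2902 and 2725 normalized counts under DMSO and 674, 1122 and 1064 with 22d. At 33.7% of the DMSO mean, it was the member with the lowest log2 fold change, -1.60 (SE 0.16, adjusted p = 3.8e-06 by limma). Without 22d replicate 1 it was -1.37. In annotation, 22.5% of its exon bases overlap CD151 on the opposite strand, which had a log2 fold change of -0.92. POLR2E, which had the highest count of the members under DMSO and stood below POLR2A under 22d, held 16469, 19553 and 15190 with DMSO and 7785, 7917 and 9159 with 22d. It fell by 1.04 (SE 0.12, adjusted p = 9.5e-06 by limma). POLR2H went from 1701 ± 76.6 to 862 ± 98.7 and POLR2F from 1392 ± 69.8 to 781 ± 76.3 (SD, n = 3 each). POLR2K, another zinc-binding subunit, had the smallest fall of the 5, from 1111, 1084 and 1177 to 698, 842 and 815, and its log2 fold change was -0.52 (SE 0.12, adjusted p = 0.0018 by limma). The promoter of POLR2F, at chr22:37953413-37953712 on the plus strand, is shown because it holds both CCGGAAG and the NRF1 motif.
POLR2F: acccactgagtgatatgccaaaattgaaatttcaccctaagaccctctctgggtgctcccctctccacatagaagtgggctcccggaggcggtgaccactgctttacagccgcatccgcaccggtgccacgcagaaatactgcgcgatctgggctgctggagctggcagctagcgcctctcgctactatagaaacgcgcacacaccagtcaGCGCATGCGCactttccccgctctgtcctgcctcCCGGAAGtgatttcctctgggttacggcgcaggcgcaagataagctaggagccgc

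Within Pol II, the genes of the large subunits stood at 91.8% (POLR2A) and 83.4% (POLR2B) of their DMSO means. Only POLR2B passed the test. POLR2A encodes the catalytic subunit with the repeated C-terminal tail that carries the phosphorylation code of transcription (chromosome 17, 7484366 to 7514616). It held 9783, 11478 and 9613 normalized counts under DMSO and 9282, 9437 and 9616 with 22d. The groups overlapped, and POLR2A did not pass (log2 fold change -0.12, SE 0.10, adjusted p = 0.34 by limma), with a sign that turned with scaling by library totals (0.10) and quantile normalization (0.19). POLR2B, the second large subunit, held 2732, 2687 and 2887 with DMSO and 2337, 2420 and 2171 with 22d. Exons of NOA1 on the opposite strand overlap 7.85% of the POLR2B exon bases, and NOA1 had a log2 fold change of 0.87. The part of such reads in the POLR2B values was not tested. The POLR2B call at -0.26 (SE 0.10, adjusted p = 0.037 by limma) was narrow. It did not pass under TMM scaling (adjusted p = 0.055), under edgeR's quasi-likelihood test (0.060), with scaling by library totals (0.75) or when DMSO replicate 1 or 3 or 22d replicate 2 or 3 was left out (0.058 to 0.14), and was 0.00 under quantile normalization (0.99).

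The smaller Pol II subunits were uneven. POLR2I, which encodes a zinc-ribbon subunit linked to fidelity, held 1587, 1742 and 1592 normalized counts under DMSO and 504, 746 and 709 with 22d. It fell by 1.35 (SE 0.14, adjusted p = 5.7e-06 by limma). Exons of TBCB on the opposite strand overlap 32.9% of its exon bases, and TBCB had a log2 fold change of -0.54. The model AD001527.2, also opposite, covers 61.9% and has no row of that name in the table. POLR2C and POLR2J, the dimer that corresponds to POLR1C and POLR1D in the other enzymes, fell alike, to 60.9% and 61.2% of the DMSO means. POLR2C went from 1430 ± 64.2 to 871 ± 47.3 and POLR2J from 2093 ± 158 to 1282 ± 39.6 (SD, n = 3 each). The genes of the stalk, POLR2D and POLR2G, were unequal. POLR2D held 1549, 1463 and 1456 with DMSO and 647, 757 and 686 with 22d, and fell by 1.10 (SE 0.11, adjusted p = 3.4e-06 by limma). POLR2G held 1650, 1875 and 1801 with DMSO and 1487, 1332 and 1413 with 22d, and fell by 0.33 (SE 0.11, adjusted p = 0.016 by limma). The POLR2G call was lost with scaling by library totals (adjusted p = 0.40), under quantile normalization (0.17), and without DMSO replicate 2 (0.054) or 22d replicate 2 (0.073).

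POLR2J has near-identical copies in the same region of chromosome 7, so reads could be split among them and their values are uncertain. POLR2J2 held 50.1, 69.3 and 62.5 normalized counts under DMSO and 43.0, 46.5 and 64.6 with 22d. POLR2J3 held 513, 715 and 546 with DMSO and 605, 583 and 702 with 22d. In both the groups overlapped and the test was not passed (limma adjusted p = 0.41 and 0.56). The pseudogene POLR2J4, left out of the members, stood at 303 ± 25.6 and 335 ± 14.5 (SD, n = 3 each; adjusted p = 0.36 by limma). POLR2M held only 10.2, 10.3 and 21.9 with DMSO and 24.4, 32.9 and 17.6 with 22d. It did not pass (log2 fold change 0.82, adjusted p = 0.089 by limma). When DMSO replicate 3 was left out, the value was 1.16 and passed (adjusted p = 0.028), as did 1.03 with scaling by library totals (0.040). In annotation, 21.1% of its exon bases are shared with GCOM1 on the same strand, which is listed at 0.

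Genes of Pol III ranged in log2 fold change from -1.48 for POLR3K to 0.65 for POLR3GL. POLR3K encodes the small subunit needed for RNA cleavage and termination (chromosome 16, 46407 to 53608). It held 1378, 1352 and 1214 normalized counts under DMSO and 439, 461 and 510 with 22d, and had the smallest p-value of all members (log2 fold change -1.48, SE 0.12, adjusted p = 4.6e-07 by limma). SNRNP25, which starts beside it on the opposite strand and overlaps 8.10% of its exon bases, had a log2 fold change of -1.94. CRCP, a subunit of the Pol III stalk outside the rule by its symbol, went from 1341 ± 100 to 929 ± 51.4 (SD, n = 3 each), and its log2 fold change was -0.53 (SE 0.11, adjusted p = 0.0011 by limma). The promoters of POLR3K, at chr16:53559-53858 on the minus strand, and of POLR3A, at chr10:78029466-78029765 on the minus strand, are shown as those of the clearest fall and of the catalytic subunit.
POLR3K: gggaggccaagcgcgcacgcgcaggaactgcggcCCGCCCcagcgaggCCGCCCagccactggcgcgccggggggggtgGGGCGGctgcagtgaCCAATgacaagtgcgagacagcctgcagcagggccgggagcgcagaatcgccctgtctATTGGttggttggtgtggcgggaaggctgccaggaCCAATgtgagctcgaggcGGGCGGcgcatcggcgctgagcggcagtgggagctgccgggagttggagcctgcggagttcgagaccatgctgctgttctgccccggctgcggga
POLR3A: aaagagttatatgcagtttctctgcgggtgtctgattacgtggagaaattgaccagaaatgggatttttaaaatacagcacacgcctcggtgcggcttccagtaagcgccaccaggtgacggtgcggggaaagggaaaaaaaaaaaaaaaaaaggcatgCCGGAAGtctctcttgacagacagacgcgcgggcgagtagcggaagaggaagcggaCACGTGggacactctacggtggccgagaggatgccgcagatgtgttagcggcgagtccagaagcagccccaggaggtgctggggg

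POLR3A, the catalytic subunit, held 1526, 1269 and 1417 normalized counts under DMSO and 847, 916 and 895 with 22d, and fell by 0.66 (SE 0.11, adjusted p = 0.00024 by limma). POLR3B, the second large subunit, went from 389, 356 and 484 to 260, 309 and 276 (log2 fold change -0.53, SE 0.15, adjusted p = 0.0083 by limma). The dimer genes POLR3D and POLR3E, of a module with a role in initiation and termination, fell by 0.43 and 0.58. The calls of POLR3B and POLR3D were lost with scaling by library totals (adjusted p = 0.13 and 0.12). All DMSO libraries stood above all 22d libraries for these 4 genes.

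The trimer that contacts the initiation factors is made of the products of POLR3C, POLR3F and either POLR3G or POLR3GL. POLR3C and POLR3F did not pass: POLR3C held 926, 795 and 909 normalized counts under DMSO and 1055, 867 and 779 with 22d, and POLR3F 131, 125 and 173 with DMSO and 186, 133 and 160 with 22d. Both genes had overlapping groups. POLR3G and POLR3GL are paralogs that encode alternative versions of the third part of the trimer. POLR3G is known to be high in stem cells and many tumour cells, and POLR3GL to be widely expressed in differentiated tissue. POLR3G held 107, 99.3 and 111 with DMSO and 20.5, 52.9 and 57.9 with 22d. POLR3GL held 488, 654 and 693 with DMSO and 1051, 875 and 930 with 22d. In neither did the groups overlap. POLR3G fell by 1.38 (SE 0.32, adjusted p = 0.0027 by limma), resting on 21 to 101 reads per library. Without 22d replicate 1 its log2 fold change was -0.92 (adjusted p = 0.0020). POLR3GL rose by 0.65 (SE 0.14, adjusted p = 0.0018 by limma), and stayed past the test in every alternative run, between 0.50 and 0.87. In annotation 21.2% of the POLR3GL exon bases are shared with AC243547.3 on the same strand, which has no row of that name in the table. The POLR3GL promoter, at chr1:145964440-145964739 on the plus strand, is shown as that of the Pol III gene that rose.
POLR3GL: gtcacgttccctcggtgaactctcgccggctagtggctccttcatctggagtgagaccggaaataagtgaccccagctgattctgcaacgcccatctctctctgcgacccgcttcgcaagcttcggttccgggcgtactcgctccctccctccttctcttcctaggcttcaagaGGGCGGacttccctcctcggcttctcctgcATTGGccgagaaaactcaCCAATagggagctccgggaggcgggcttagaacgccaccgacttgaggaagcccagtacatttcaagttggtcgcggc
It holds 1 match to GGGCGG and 2 to CCAAT.

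Ratios within a library hardly depend on a single scaling factor for that library and set subunit genes against each other directly. The log2 ratio of POLR3G to POLR3GL was -2.18, -2.71 and -2.63 with DMSO and -5.61, -4.02 and -3.98 with 22d. The difference was -2.03, and -1.50 without 22d replicate 1. The log2 ratio of POLR1A to POLR2A was -1.25, -1.47 and -1.34 with DMSO and -2.85, -2.39 and -2.37 with 22d, a difference of -1.19. For POLR1B to POLR2B the means were -0.90 ± 0.08 and -1.62 ± 0.28 (SD, n = 3 each), a difference of -0.72. The differences were -0.54 for POLR3A to POLR2A and -0.27 for POLR3B to POLR2B. The latter was -0.17 without DMSO replicate 3 and -0.58 under quantile normalization, which reshapes each library's values. For POLR2D to POLR2G, a pair added after the values were seen, the difference was -0.77. In all 6 ratios every 22d library lay below every DMSO library, for POLR3B to POLR2B only narrowly (-2.91 in DMSO replicate 2, -2.96 in 22d replicate 2). Several ratios share POLR2A or POLR2B, so they are not independent. No share was computed for ratios of other gene pairs. Of single genes tested, 33.3% lay without overlap lower and 32.1% higher. Each exact two-sided permutation test gave p = 0.10, the smallest p that 3 libraries against 3 allow, and 0.10 after Benjamini-Hochberg adjustment over the 6 ratios, so none could pass.

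**Figure D3:**
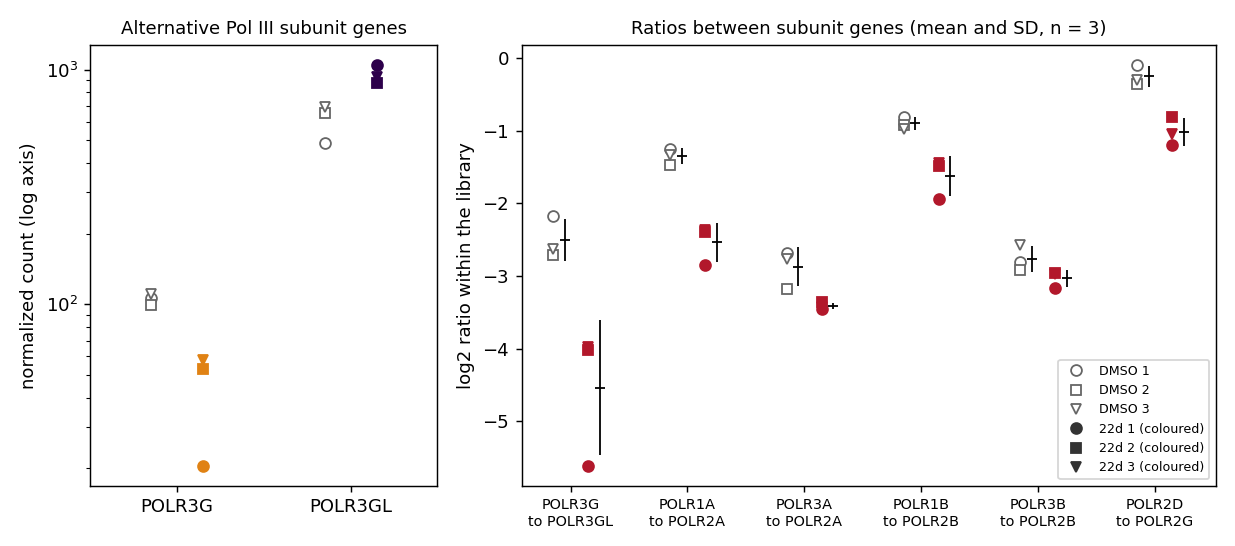
The left panel gives normalized counts of POLR3G and POLR3GL in every library on a log axis. The right panel gives 6 log2 ratios within each library, with the mean and SD of 3 libraries beside the points. Filled 22d points lie below the open DMSO points in all 6 ratios.

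Levels were compared between genes per kilobase of annotated exon (GENCODE 29, all transcripts of a gene merged), for the 29 members with a unique gene of that name. Genes with long alternative exons are understated by this measure. With DMSO, POLR2E was highest at 3509 ± 461 normalized counts per kilobase, followed by POLR2L at 2475 ± 80.0, POLR2J at 1545 ± 116, POLR2I at 1293 ± 69.2 (SD, n = 3 each) and POLR2A at 1171, 1374 and 1151 in the 3 libraries. POLR2I and POLR2A did not differ beyond their spread. With 22d, POLR2E was again highest at 1703 ± 156 and POLR2A stood next at 1130 ± 20.0, above POLR2J at 946 ± 29.2 and POLR2L at 835 ± 214, and the last 2 overlapped. POLR3GL stood at 271, 363 and 385 with DMSO and 584, 486 and 517 with 22d, far above its paralog POLR3G at 26.3 ± 1.46 and 10.9 ± 5.05. Among the catalytic subunits, POLR1A went from 298 ± 13.9 to 122 ± 23.3 per kilobase, and POLR3A stood at 157 ± 14.5 with DMSO. With 22d the 3 libraries lay at 95.2, 133 and 137 for POLR1A and at 94.9, 103 and 100.4 for POLR3A, which overlap.

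**Figure D4:**
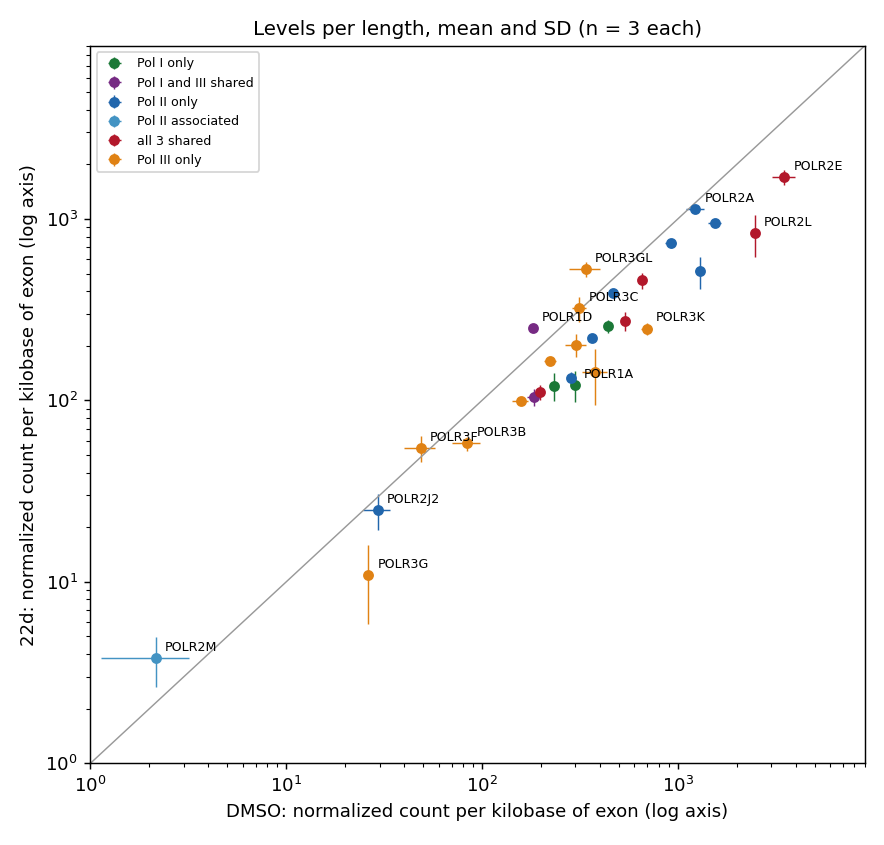
Each point is a subunit gene, with the mean normalized count per kilobase of exon with DMSO on the horizontal log axis and with 22d on the vertical one. Bars are SDs of 3 libraries and the line marks equal levels. Most points lie below the line. POLR1D and POLR3GL, which rose, lie above it, as do POLR2M, POLR3C and POLR3F, which did not pass the test.

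Genes of the factors that work with each polymerase are given by list, to be read against the 29.6% of all genes tested that fell and the 28.5% that rose, with a median log2 fold change of 0.01. Of 15 polymerase assembly factor genes, 11 fell and 1 rose (median log2 fold change -0.57). RUVBL1 and RUVBL2, ATPases of the assembly chaperone, fell by 1.56 and 1.58, and RPAP3, a cochaperone subunit, rose by 0.56. Of 8 Pol I factor genes, 2 fell and 5 did not pass (median -0.25), and TAF1D, of the promoter selectivity factor, rose (0.65). UBTF, the nucleolar activator of Pol I, stood at 5995 ± 201 normalized counts under DMSO and 3383 ± 209 under 22d (SD, n = 3 each) and fell by 0.83, and TBP, which serves all the enzymes, fell by 0.47. Of 18 Pol III factor genes, 9 fell and 4 rose (median -0.31). The subunit genes GTF3C2 and GTF3C6 of factor TFIIIC fell by 0.95 and 0.98, whereas SNAPC2 and SNAPC3, of the small nuclear RNA activating complex, rose by 0.55 and 0.88.

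For Pol II, 12 of 33 general factor genes fell and 7 rose (median log2 fold change -0.15), a share called close to the 58% of all genes tested. GTF2H3 and GTF2H4, of factor TFIIH, fell by 0.91 and 0.81, and MNAT1, also of that factor, and TAF7 rose by 0.53 and 0.49. Of 26 elongation factor genes, 14 fell and 2 rose (median -0.35). SSRP1, of the histone chaperone FACT, stood at 10346 ± 620 normalized counts under DMSO and 3980 ± 127 under 22d (SD, n = 3 each) and fell by 1.38, and the elongin gene TCEB2 fell by 0.99. CTR9, of the PAF1 complex, and TCEA1, which encodes a factor that restarts stalled Pol II, rose by 0.50 and 0.34. Of 11 genes for kinases and phosphatases of the POLR2A tail and related proteins, 7 fell and 1 rose (median -0.44). Among them the phosphatase genes CTDSPL and CTDSP1 fell by 1.88 and 0.75 and CTDSP2 rose by 0.64. For the separate mitochondrial enzyme, 4 of 6 genes fell and 0 rose. POLRMT, the mitochondrial RNA polymerase, fell by 0.83 and the factor gene TFB2M by 0.73.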

How the data were processed

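RNA-seq libraries of MV4-11 cells were made from total RNA, 3 labelled DMSO and 3 labelled 22d. The tools named in the submitters' processing notes are STAR, HTSeq, DESeq2, cutadapt and FastQC, without versions, and the build is hg38. The strand setting and annotation are not given in the sources used here. Per the file headers, the deposited values comprise a normalized signal for each library, the authors' mean, their log2 fold change and its error, a test score, and raw and adjusted p-values. In that signal, 100% of values were whole multiples of 1 factor per library (within 0.001 of a read), so whole reads were recovered.

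limma-trend 3.58.1 (R 4.3.3) was run on log2(normalized count + 1) for genes with a mean of at least 10, because the unit is no raw count. Fold changes on this scale understate low genes. A call is an adjusted p under 0.05 over all genes tested. On recovered reads, edgeR 4.0.16 with TMM scaling called 7723 genes and DESeq2 1.42.0 called 7537, compared with 7718 by limma. Overlaps and lengths came from GENCODE 29 and figures from matplotlib 3.10.9 in Python 3.11.15. Scripts were tested on simulated data, where 66 or 67 of 13207 genes were changed at each fold, far fewer than were called here. There limma recovered 46.3% of 1.5-fold, 80.6% of 2-fold and 100% of 4-fold changes. The share of false calls ran from 5.6% with limma to 9.9% with DESeq2. Members and lists were chosen with earlier results of these data known. One gene of Pol III is in the counts and medians but is not reported here by its own values. Every other member was named, and from each other list up to 2 called genes per direction with the largest change and a mean of at least 100. Groups of 3 limit precision.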

Additional observations from a re-analysis of the deposited data

How the results depend on the processing

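Alternatives were a pseudocount of 0.5 or 5, no filter or a minimum of 50, scaling by library totals, quantile or TMM normalization, edgeR, DESeq2, the replicate block, and leaving out each library. Of 479 results for single subunit genes, 457 kept their direction and side of the threshold. In the same direction, 14 lost their call and 2 gained one, and 6 turned direction. POLR2B with quantile normalization is counted among the 6 and also lost its call (adjusted p = 0.99 by limma). Those that turned were POLR2A with library totals (0.10) and quantile normalization (0.19), POLR2B with quantile normalization (0.0021), POLR3F with quantile normalization (-0.010), and POLR3C without DMSO replicate 2 (-0.039) and without 22d replicate 1. With 1 library left out, POLR3C ranged from -0.090 to 0.13. POLR2A, POLR3F and POLR3C were not called in the main test. The cause of these changes was not tested.

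Subunit genes called lower numbered 18 to 22 over all alternatives and those called higher 2 to 3. With 1 library left out, the genes of Pol II called lower numbered 4 to 6, those of Pol I 3 and those of Pol III 7. With library totals, 65.6% of all calls were higher, compared with 49.0% in the authors' scaling. With the replicate block 21 members were lower and 2 higher, POLR2B no longer passing (adjusted p = 0.094), and 7419 genes were called in all. Deviations of same-numbered libraries correlated with r of -0.03, -0.02 and -0.10 across genes, and no library correlated best with its own number. With groups of 3 such correlations cannot exclude a shared culture or day. The labels name no pairing, so whether same-numbered libraries share more than a number is not known. POLR2J2, POLR2M and POLR3G, with at most 101 reads in a library, are limited by depth. Groups of 3 were not tested for outlying libraries.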
